A study of Mus musculus with 12 samples.

Results

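Marrow cultures and bone-associated cells of wild-type mice were compared as they were before any macrophages were taken out. The 6 libraries described here, of 12 in the series, are the 3 of BM_NonSorted and the 3 of BAC_NonDepleted, chosen by their group labels alone. BM_NonSorted cells were obtained as whole marrow of hind limbs and pelvis, grown on collagen I and taken after the first passage without sorting. BAC_NonDepleted cells were released from hind-limb bone fragments with collagenase I and used without magnetic depletion. Per the labels' protocols the growth medium lacked ascorbic acid and the incubator was hypoxic. The sources used here do not give the time that the bone-associated cells spent in culture, and site, digestion and culture differ together and cannot be told apart. The labels do not say whether the 3 libraries of a group came from separate animals or cultures, and the p-values measure only the spread between these libraries, which may be technical. The other 6 libraries, flow-sorted marrow stroma (BM_Sorted) and bone-associated stroma freed of CD45, Ly6C or F4/80 positive cells (BAC_Depleted), served to tell genes of macrophages from genes of stroma.

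Macrophages are phagocytes of the blood lineage. They clear debris through scavenger and Fc receptors, digest it in lysosomes, make complement C1q and, when stimulated, secrete chemokines and answer interferon. Mesenchymal stromal cells build and remodel matrix and can take on bone, cartilage, fat or contractile programmes. In adherent marrow cultures both grow on the same plate, and every transcript of a bulk library is a sum over both. A lower level of a gene may therefore come from fewer cells of a type or from less RNA per cell, and these cannot be told apart here.

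Each gene was given a class from the purified libraries only, which do not enter the comparison. Genes at a mean of at most 1 CPM (the count of a gene scaled to a common library size) in both purified groups were called genes of the removed cells. Genes at 5 CPM or more in both were called genes of both stromas, and those at 5 CPM or more in one and at most 1 CPM in the other were called genes of marrow stroma alone or of bone stroma alone. The 6 compared libraries held 28391422 to 31929284 counts. Correlations of log2 CPM were 0.975 to 0.986 within the marrow group, 0.963 to 0.981 within the bone-associated group and 0.880 to 0.901 between the groups. Mitochondrial transcripts took 1.12% to 1.36% of the counts in the 6 libraries. The purified library BAC_Depleted 1 stood apart with 43406 counts of Xist, against at most 16 in any other library, and leaving it out of the class assignment moved no class count by more than 1.5 times.

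Of 14686 genes tested with edgeR's quasi-likelihood test and Benjamini-Hochberg adjustment, 3083 (21%) were higher in marrow and 3142 (21.4%) were lower, so 42.4% were called at an adjusted p under 0.05. Of these, 1113 of the higher and 1505 of the lower genes differed by at least 2-fold. The values of the 3 marrow and the 3 bone-associated libraries did not overlap for 57.4% of the genes tested. Without BM_NonSorted 2 the calls fell to 1955 higher and 2002 lower, and without BAC_NonDepleted 2 the higher calls fell to 2048. All log2 fold changes below are marrow minus bone-associated and stand with an approximate standard error, so a negative value means less in marrow.

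Few markers of other cell types reached the counts needed for a test, and those that did were at low summed levels. For neutrophils 3 of 14 genes were tested, with a sum of 3.33 to 5.02 CPM in marrow and 7.60 to 8.72 CPM in bone-associated libraries. For mast cells and basophils 4 of 13 were tested, at 27.2 to 41.2 and 40.0 to 78.1 CPM. The 2 of 12 B and plasma cell genes tested summed to 112 to 144 and 70.1 to 174 CPM, and the 3 of 13 T and NK cell genes to 17.3 to 175 and 108 to 130 CPM. The 5 of 14 erythroid and megakaryocyte genes summed to 52.3 to 56.95 CPM in marrow and 92.9 to 146 CPM in bone-associated libraries, where 2 were higher. The 8 of 15 endothelial genes summed to 101 to 198 CPM in marrow and 28.05 to 50.3 CPM in bone-associated libraries, with 3 higher and 2 lower in marrow. Over all genes tested 21% were higher and 21.4% lower in marrow. Of defining genes, Hba-a2 (red cells), Cd3e (T cells) and Ly6g (neutrophils) had 0 counts in all 6 libraries, Pecam1 (endothelium) at most 9 counts and Ly6c2 (inflammatory monocytes) at most 1. The part of these cells in the results was not tested.

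The classes moved in different ways. Among genes with a mean of at least 5 CPM over the 6 libraries, of which 23% were higher and 22.6% lower in marrow, 237 of 261 removed-cell genes were lower and 2 were higher, with a median log2 fold change of -1.18. Over all 1596 removed-cell genes tested, most of them below that level, 515 were lower and 125 higher. A gene could reach 5 CPM through one group alone, so the counts at that level are a description. The 9567 genes of both stromas split into 2226 higher and 1821 lower around a median of 0.05. Without BM_NonSorted 2 these counts were 1365 and 1050, and without BAC_NonDepleted 2 the higher ones were 1377. Of 50 genes of marrow stroma alone 32 were higher and 7 lower (median 1.19), and of 62 genes of bone stroma alone 55 were lower and 0 higher (median -4.84). Both medians are the same when genes at 0 in one group are set to their bound. The classes that belong to 1 stroma were chosen by a difference between the same 2 sites in other libraries, so their counts are given as a description.

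**Figure D1:**
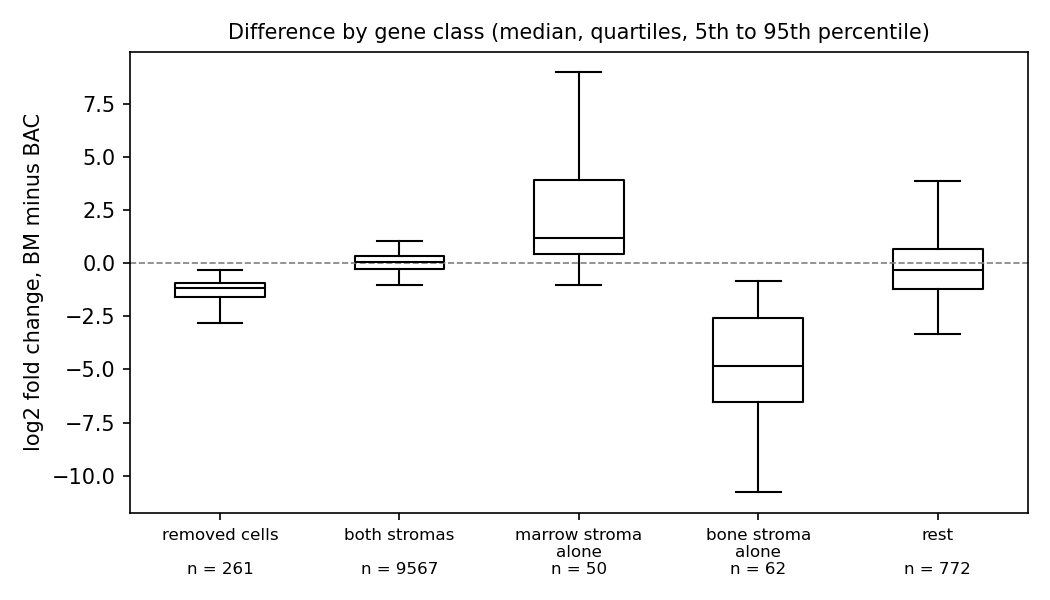
Log2 fold change between unpurified marrow and unpurified bone-associated libraries (y axis, BM minus BAC) for genes with a mean of at least 5 CPM, by class. Boxes give the median and quartiles and whiskers the 5th to 95th percentile; removed-cell genes lie almost wholly below 0 (median -1.18), genes of both stromas straddle it, and genes of bone stroma alone lie lowest (median -4.84).

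Macrophage transcripts were the first difference: they made up a smaller part of the marrow RNA. Removed-cell genes took 1.07% ± 0.0473 (SD, n = 3) of the counts in marrow and 2.22% ± 0.343 in bone-associated libraries, a ratio of 2.07. All 3 bone-associated libraries lay above all 3 marrow libraries, and the two-sided exact permutation test gave p = 0.1, the smallest that 3 against 3 allows. The same genes took 0.147% of the counts in BM_Sorted and 0.152% in BAC_Depleted, low shares that the class rule fixed beforehand. Of 25 macrophage core genes 24 were lower in marrow and 0 higher, and all 16 pan-haematopoietic genes were lower, against 21.4% lower over all genes tested. Their median log2 fold changes were -1.30 and -1.04, beside 0.01 over all genes tested.

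Adgre1, which encodes the F4/80 antigen, stood at 306, 285 and 332 CPM in the marrow libraries and 1033, 973 and 912 CPM in the bone-associated libraries. No library of one group reached the other, and Adgre1 was 3.16-fold higher in bone-associated cells (log2 -1.66 ± 0.11, edgeR adjusted p = 0.000574). Ptprc, which encodes the pan-leukocyte antigen CD45, stood at 109, 88.7 and 94.9 CPM in the marrow libraries and 266, 253 and 192 CPM in the bone-associated libraries. It too was lower in every marrow library (-1.28 ± 0.15, edgeR adjusted p = 0.00199). Csf1r, the receptor for the macrophage growth factor CSF1, was at 481, 426 and 361 CPM in the marrow libraries and 1066, 940.1 and 957 CPM in the bone-associated libraries (-1.22 ± 0.14, edgeR adjusted p = 0.00175). Ms4a7, a membrane protein of mature macrophages, had the largest fall of the core list, at 57, 44.6 and 68.1 CPM in the marrow libraries and 217, 227 and 179.8 CPM in the bone-associated libraries (-1.88 ± 0.18, edgeR adjusted p = 0.00115). The mannose receptor gene Mrc1 fell by a similar size (-1.62). The one core member not called was Cx3cr1, the fractalkine receptor, at 84, 51.6 and 33.6 CPM in the marrow libraries and 54.2, 43.6 and 153 CPM in the bone-associated libraries. BAC_NonDepleted 3 was highest for this gene and the groups overlapped (log2 -0.57 ± 0.57, edgeR adjusted p = 0.459).

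**Figure D2:**
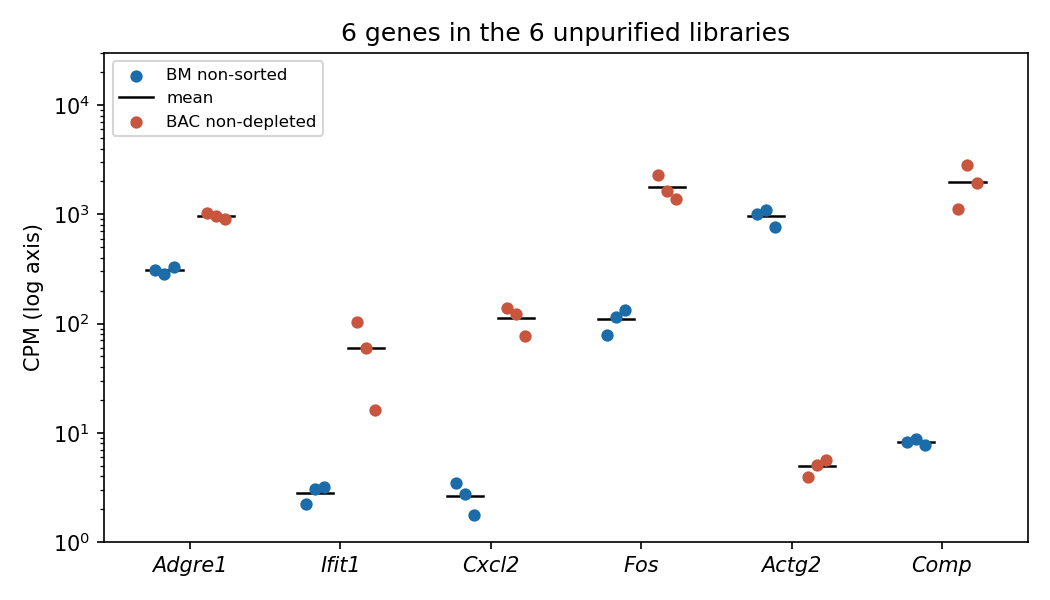
Level of 6 genes in CPM (log axis) in each of the 3 unpurified marrow libraries (blue) and 3 unpurified bone-associated libraries (red); bars are group means. The groups do not overlap for any of the 6, nor for 57.4% of all genes tested. Adgre1, Ifit1, Cxcl2, Fos and Comp are lower in marrow and Actg2 is higher.

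Macrophage lists differed in how far they were lower in marrow. The counts below stand beside 21.4% lower and 21% higher over all genes tested. Of 23 Fc and pattern-recognition receptors 20 were lower in marrow and 0 higher (median -1.24). Fcgr2b, the inhibitory Fc receptor, was at 71.4, 55.5 and 82.7 CPM in the marrow libraries and 253, 446 and 212 CPM in the bone-associated libraries (-2.12 ± 0.32, edgeR adjusted p = 0.00463). Nlrp3, the inflammasome sensor, and Tlr9, the endosomal DNA sensor, had log2 fold changes of -1.67 and -2.15. Of 23 lysosomal genes 20 were lower and 1 higher (median -0.83), or 13 lower without BM_NonSorted 2. The list is not specific to macrophages, since 18 of the 23 were genes of both stromas. Cathepsin S (Ctss), a removed-cell gene, was at 229, 177 and 192 CPM in the marrow libraries and 576, 545 and 513 CPM in the bone-associated libraries (-1.45 ± 0.13, edgeR adjusted p = 0.000969). The one that rose, cathepsin H (Ctsh), was a gene of both stromas, at 155, 128 and 144 CPM in the marrow libraries and 42.1, 65.8 and 56.7 CPM in the bone-associated libraries (1.38 ± 0.18, edgeR adjusted p = 0.00242). Of 16 complement genes 12 were lower and 0 higher, and they included stromal as well as macrophage products. C1ra, a protease of the C1 complex that stromal cells make, was at 16, 32.2 and 21.1 CPM in the marrow libraries and 238, 134 and 105 CPM in the bone-associated libraries (-2.78 ± 0.41, edgeR adjusted p = 0.00411). C3, the central complement protein, was at 5.29, 6.05 and 4.83 CPM in the marrow libraries and 285, 446 and 35.9 CPM in the bone-associated libraries. The spread among bone-associated libraries was wide, with BAC_NonDepleted 3 lowest, yet no marrow library reached it (-5.57 ± 0.96, edgeR adjusted p = 0.00686). Of 16 resident-macrophage genes 12 were lower and 2 higher. Other macrophage lists were mixed. Of 16 genes of monocytes and inflammatory macrophages 7 were lower and 4 higher (median -0.69), of 17 lipid-handling genes 9 were lower and 1 higher (median -0.36), and of 9 osteoclast genes 4 were lower and 3 higher (median -0.096). Neither the resident list nor these lists are specific to macrophages here. Removed-cell genes were 4 of the 16 resident, 7 of the 16 monocyte, 0 of the 17 lipid-handling and 2 of the 9 osteoclast genes. Genes of both stromas were 8, 7, 14 and 5, in the same order. Siglec1, the sialic-acid receptor CD169 of marrow macrophages, was at 144, 121 and 119 CPM in the marrow libraries and 496, 397 and 371 CPM in the bone-associated libraries (-1.72 ± 0.15, edgeR adjusted p = 0.000957; with all 12 libraries in the fit 0.0687).

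Since the macrophage core genes were lower in marrow, the removed-cell genes were also read relative to one another, with library sizes set by genes of the removed cells. The outcome depended on which genes set the scale. Scaling by the 1596 tested removed-cell genes left 7 of 261 higher, 167 lower and 87 not called, with a median of -0.49. Without BM_NonSorted 2 the lower ones were 106, and the higher ones were 12 without BM_NonSorted 3 and 3 without BAC_NonDepleted 1. Scaling by the 41 macrophage core and pan-haematopoietic genes left 42 higher, 51 lower and 168 not called, with a median of 0.01. A first version that used all 40479 near-absent entries of the table, most of them with few or no counts, gave 3 higher and 226 lower. Over all genes tested these scales called 62.6% higher and 7.58% lower, and 77.5% higher and 3.67% lower, for the tested removed-cell genes and the core lists. The log2 fold changes moved up by 0.69 with the tested removed-cell genes, by 1.17 with the core lists and by 0.16 with all near-absent entries. Under all 3 scales 51 of the 261 genes were lower in marrow and 3 were higher. The scales differ by a nearly constant shift, so these are the 51 lower with the core lists and the 3 higher with all near-absent entries. Agreement between the scales is therefore no added support. On the core scale 229 of the 261 lay within 2-fold of the macrophage core, 23 were lower by at least 2-fold and 9 higher by at least 2-fold.

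**Figure D3:**
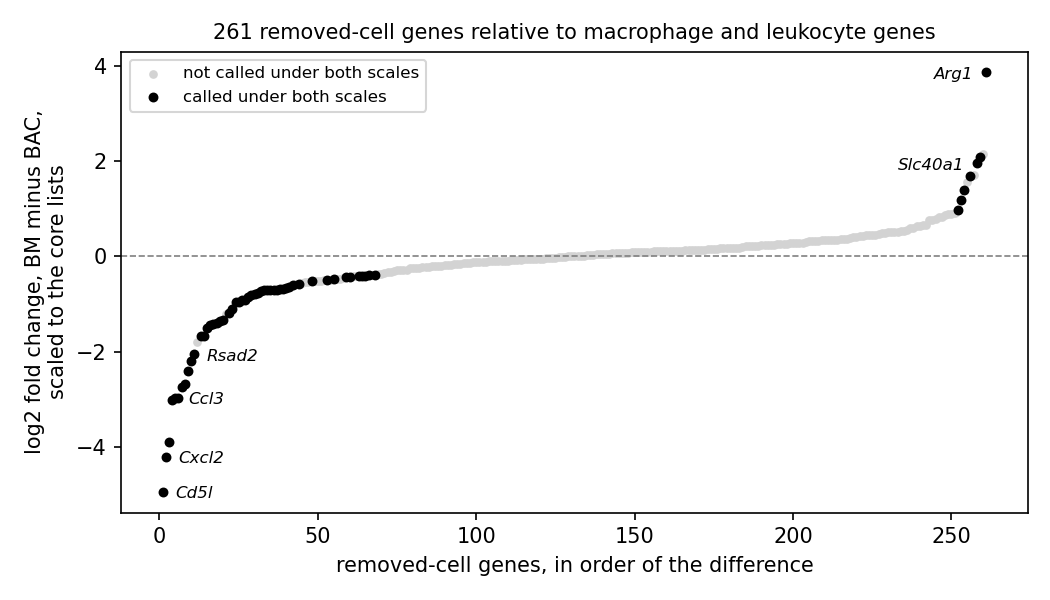
Log2 fold change (y axis, BM minus BAC, library sizes set by the macrophage core and pan-haematopoietic genes) of the 261 removed-cell genes, ordered along the x axis from lowest to highest. Black points were called in the same direction with library sizes set by the tested removed-cell genes; most genes lie near 0, a tail led by Cd5l, Cxcl2 and Ccrl2 lies far below, and Arg1 lies highest.

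The 5 lowest genes on the core scale were, in order, Cd5l, Cxcl2, Ccrl2, Rgs1 and Ccl3, followed by Cd74 (-2.96). Cd5l, a secreted protein of tissue macrophages, was at 0.156, 0.162 and 0.480 CPM in the marrow libraries and 22.1, 16.4 and 18.2 CPM in the bone-associated libraries. The log2 fold change was -6.11 ± 0.41, edgeR adjusted p = 0.000653, and -5.43 and -4.93 on the scales of the tested removed-cell genes and of the core lists, given in that order from here on. Cxcl2, a neutrophil-attracting chemokine, was at 3.46, 2.75 and 1.77 CPM in the marrow libraries and 139, 122 and 76.1 CPM in the bone-associated libraries (-5.40 ± 0.36, edgeR adjusted p = 0.000661; scaled -4.70 and -4.21). Ccrl2, an atypical chemokine receptor, was at 0.810, 0.647 and 0.510 CPM in the marrow libraries and 20.9, 24.1 and 20.7 CPM in the bone-associated libraries (-5.06 ± 0.19, edgeR adjusted p = 0.000225; scaled -4.37 and -3.89). For Ccl3, a chemokine of activated macrophages, the levels were 7.19, 7.70 and 7.86 CPM in the marrow libraries and 123, 147 and 131 CPM in the bone-associated libraries (-4.14 ± 0.10, edgeR adjusted p = 7.28e-05; scaled -3.45 and -2.96). The 3 bone-associated values lay close together, and each was over 10 times the highest marrow value. Rgs1, which damps chemokine receptor signalling, was at 10.7, 8.64 and 5.34 CPM in the marrow libraries and 153, 142 and 148 CPM in the bone-associated libraries (-4.17 ± 0.26, edgeR adjusted p = 0.000574; scaled -3.49 and -3.01). Il10, a cytokine that restrains macrophages, was a removed-cell gene too, but its mean was under 5 CPM and it is not among the 261. It was at 0.156, 0.259 and 0.450 CPM in the marrow libraries and 10.9, 10.3 and 5.92 CPM in the bone-associated libraries (-4.95 ± 0.45, edgeR adjusted p = 0.00103).

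Of the 261 genes, the 3 that were higher in marrow under every scale were Arg1, Slc40a1 and Mmp12. Kcnmb1, which is in the removed-cell class but not among the 261, was called higher in marrow too. The class rests on low levels in both purified groups, so it does not show that macrophages made this transcript. Kcnmb1 had 547 counts over the marrow libraries and 2 over the bone-associated ones, a ratio of 237 (95% counting interval 65.4 to 1960). Arg1, the arginine-degrading enzyme of alternatively activated macrophages, was at 57.9, 36 and 19.4 CPM in the marrow libraries and 2.55, 10.8 and 4.13 CPM in the bone-associated libraries (2.7 ± 0.65, edgeR adjusted p = 0.0203; scaled 3.38 and 3.86). The unscaled call was lost with no low-count filter (edgeR adjusted p = 0.0935) and without BM_NonSorted 1 (0.0582), BM_NonSorted 2 (0.0559) or BAC_NonDepleted 3 (0.0548). Slc40a1, the iron exporter ferroportin, was at 30.9, 32.2 and 37.3 CPM in the marrow libraries and 19.1, 24.9 and 15.6 CPM in the bone-associated libraries (0.75 ± 0.18, edgeR adjusted p = 0.0194; scaled 1.45 and 1.95). Its unscaled call was lost without BM_NonSorted 2 (edgeR adjusted p = 0.055), BM_NonSorted 3 (0.0522) or BAC_NonDepleted 1 (0.0608), and with all 12 libraries in the fit (0.172). Mmp12, the macrophage elastase, was at 33.8, 31.5 and 28.4 CPM in the marrow libraries and 9.12, 21.8 and 18 CPM in the bone-associated libraries and passed on the scaled values (1.62 and 2.09) but not on the unscaled ones (0.94 ± 0.31, edgeR adjusted p = 0.0535).

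Interferon-response genes were lower in marrow. Of 30 tested, 25 were lower and 0 higher, against 21.4% lower over all genes tested, with a median of -2.53 beside -1.30 for the core genes, a difference that was not itself tested. On the core scale 18 were lower and 3 higher, where 3.67% of all genes tested were lower and 77.5% higher. That scale is meant for removed-cell genes, which 6 of the 30 were, while 15 were genes of both stromas. The promoters of Ifit1 and Ifit3, interferon-induced proteins that bind viral RNA, are shown because they hold the element through which interferon acts, the ISRE. Each sequence is the 250 bases before the RefSeq start of the gene (GRCm38.p6, plus strand), with matches to the ISRE core (a pair of GAAA runs with any 2 bases between them, on either strand) in capitals.
Ifit1, chr19:34640639-34640888: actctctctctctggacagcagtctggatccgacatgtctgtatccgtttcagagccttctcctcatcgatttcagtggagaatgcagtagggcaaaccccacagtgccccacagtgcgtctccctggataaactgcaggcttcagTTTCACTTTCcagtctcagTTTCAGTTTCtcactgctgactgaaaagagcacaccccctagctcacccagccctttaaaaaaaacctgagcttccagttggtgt
Ifit3, chr19:34583279-34583528: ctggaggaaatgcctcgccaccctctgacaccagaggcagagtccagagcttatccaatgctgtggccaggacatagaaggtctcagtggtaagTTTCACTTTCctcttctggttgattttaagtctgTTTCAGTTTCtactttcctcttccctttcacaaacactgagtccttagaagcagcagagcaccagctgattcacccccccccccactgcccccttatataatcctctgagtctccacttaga
Both windows hold 2 matches, starting 104 and 85 bases before the start in Ifit1 and 156 and 122 bases before it in Ifit3. Of 25 listed genes with a RefSeq promoter (250 bases before to 50 after the start), 15 (60%) hold a match, against 3.84% of 10964 tested genes. The match did not go with the call: 11 of 17 genes lower in marrow held it, and so did 4 of 5 not called.

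Ifit1 stood at 2.21, 3.04 and 3.18 CPM in the marrow libraries and 103, 60 and 16 CPM in the bone-associated libraries. BAC_NonDepleted 1 was highest and BAC_NonDepleted 3 lowest, but even the lowest was 5 times the highest marrow value or more (-4.40 ± 0.71, edgeR adjusted p = 0.0056). Ifit3 was at 1.90, 2.01 and 3.03 CPM in the marrow libraries and 73.5, 40.9 and 12.8 CPM in the bone-associated libraries with the same order of libraries (-4.19 ± 0.69, edgeR adjusted p = 0.00576). Ifit3b, a close copy of Ifit3 whose reads may be shared with it, had a log2 fold change of -5.17. The summed level of the list was 574 to 638 CPM in the marrow libraries and 1881, 1201 and 707 CPM in the bone-associated libraries. So the excess was carried mostly by 2 of the 3 bone-associated libraries, and without 1 library the count of genes lower ran from 18 to 29. Genes of the removed cells and of stroma were both among those lower. Oas2, an antiviral enzyme of the removed-cell class, was at 4.48, 4.04 and 6.51 CPM in the marrow libraries and 45, 27.9 and 20.4 CPM in the bone-associated libraries (-2.63 ± 0.35, edgeR adjusted p = 0.00305; scaled -1.92 and -1.41). Ifit2, a gene of both stromas, was at 12, 11.2 and 13.7 CPM in the marrow libraries and 70.3, 56.7 and 33.2 CPM in the bone-associated libraries (-2.12 ± 0.28, edgeR adjusted p = 0.00302). Between the purified stromas, 13 of the 30 were lower in marrow and 0 higher, against 19.9% lower over all genes tested there.

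Inflammatory cytokines and chemokines split by gene. Of 23 tested 14 were lower in marrow and 2 higher, with a median of -2.74, against 21.4% lower over all genes tested. On the core scale 13 were lower and 6 higher, where 3.67% of all genes tested were lower and 77.5% higher. That scale is meant for removed-cell genes, which 8 of the 23 were, while 7 were genes of both stromas. The promoter of Cxcl2 is shown for its match to the NF-kB site, in capitals, in the 250 bases before the RefSeq start (GRCm38.p6, plus strand).
Cxcl2, chr5:90903649-90903898: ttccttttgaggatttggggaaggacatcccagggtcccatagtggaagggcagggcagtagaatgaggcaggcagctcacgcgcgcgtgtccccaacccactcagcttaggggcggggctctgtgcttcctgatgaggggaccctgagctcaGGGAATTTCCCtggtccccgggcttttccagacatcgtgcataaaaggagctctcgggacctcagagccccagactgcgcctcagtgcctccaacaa
The run in capitals is 1 stretch that matches in 2 overlapping registers. Of 22 listed genes with a promoter 9 (40.9%) held an NF-kB match on either strand, against 12.4% of tested genes. Among the genes lower in marrow 3 of 8 held it, and among those not called 4 of 7.

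Tnf, the central inflammatory cytokine, was at 14.6, 12.4 and 7.83 CPM in the marrow libraries and 62.2, 97.9 and 86.2 CPM in the bone-associated libraries (-2.82 ± 0.29, edgeR adjusted p = 0.00149; scaled -2.15 and -1.67). Ccl2, which recruits monocytes and is a gene of both stromas, was at 69.8, 52.6 and 49.9 CPM in the marrow libraries and 487, 468 and 334 CPM in the bone-associated libraries (-2.90 ± 0.21, edgeR adjusted p = 0.000661). Cxcl5, a neutrophil chemokine, was at 0.654, 1.94 and 0.240 CPM in the marrow libraries and 85.4, 38.2 and 131 CPM in the bone-associated libraries (-6.50 ± 0.84, edgeR adjusted p = 0.00274). The secreted iron-binding protein gene Lcn2, present in depleted bone stroma, had 1 count over the 3 marrow libraries and 1123 over the bone-associated ones, a ratio of 1290 (95% counting interval 232 to 51200). In the opposite direction Lif, a cytokine of the IL-6 family, was at 32.6, 36.1 and 22.8 CPM in the marrow libraries and 2.48, 3.04 and 4.62 CPM in the bone-associated libraries (3.17 ± 0.29, edgeR adjusted p = 0.00113). Il6 itself overlapped between the groups, at 7.60, 4.21 and 2.85 CPM in the marrow libraries and 6.98, 18.5 and 1.87 CPM in the bone-associated libraries (-0.90 ± 0.81, edgeR adjusted p = 0.407).

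Antigen-presentation genes were few. Of 10 tested genes of dendritic cells and MHC class II, 3 were lower, 1 was higher and 6 were not called. Over all genes tested 21.4% were lower and 21% higher, so the list as a whole did not stand out by its counts. The class II chain H2-Aa was at 0.311, 0.129 and 0.240 CPM in the marrow libraries and 3.86, 5.21 and 14.1 CPM in the bone-associated libraries (-5.05 ± 0.67, edgeR adjusted p = 0.0029), and the invariant chain Cd74 at 1.09, 1.71 and 2.28 CPM in the marrow libraries and 22.6, 15.3 and 48.6 CPM in the bone-associated libraries (-4.08 ± 0.54, edgeR adjusted p = 0.00301). Both were highest in BAC_NonDepleted 3, the bone-associated library with the lowest summed level of interferon genes. Zbtb46, a transcription factor of dendritic cells that was not in the removed-cell class, was higher in marrow (1.80 ± 0.22, edgeR adjusted p = 0.00207).

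**Figure D4:**
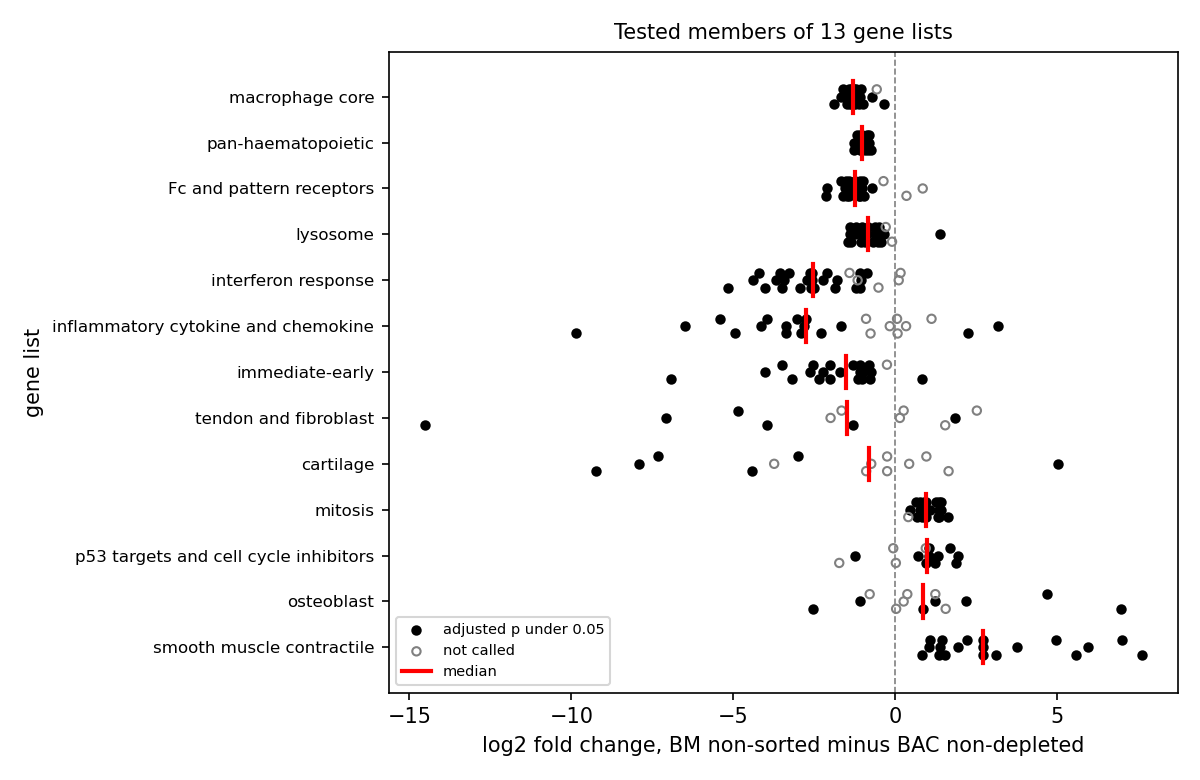
Log2 fold change (x axis, BM non-sorted minus BAC non-depleted) of each tested member of 13 gene lists (y axis). Filled points were called at an adjusted p under 0.05, open ones were not, and red bars are list medians; the lowest point, Thbs4, is a fitted value that rests on 2 counts in marrow; the medians of the macrophage and interferon lists shown lie below 0 and those of the mitosis and smooth muscle lists above it.

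On the stromal side, contractile genes were higher in marrow. All 19 smooth muscle genes tested were higher in marrow, against 21% over all genes, with a median of 2.7. The 2 groups of libraries were apart for each of the 19, and for 57.4% of all genes tested. With each library left out in turn 17 to 19 were called. Actg2, the gamma actin of smooth muscle, was at 1012, 1102 and 765 CPM in the marrow libraries and 3.96, 5.10 and 5.66 CPM in the bone-associated libraries. This is 196-fold more in marrow (7.61 ± 0.25, edgeR adjusted p = 0.000154). Acta2, the alpha actin that marks myofibroblasts, was at 5098, 4427 and 3739 CPM in the marrow libraries and 357, 784 and 885 CPM in the bone-associated libraries (2.71 ± 0.37, edgeR adjusted p = 0.00294). Myh11, the smooth muscle myosin heavy chain, was at 124, 87.8 and 36.9 CPM in the marrow libraries and 0.403, 1.01 and 0.497 CPM in the bone-associated libraries (7.02 ± 0.64, edgeR adjusted p = 0.0012). Myocd, the cofactor that switches on this programme, was at 4.48, 7.60 and 13.3 CPM in the marrow libraries and 0.101, 0 and 0.306 CPM in the bone-associated libraries (5.95 ± 0.89, edgeR adjusted p = 0.00431). Of 15 of these genes with a RefSeq promoter, 1 held a CArG box, the element read by the serum response factor, against 1.53% of tested genes. In the purified libraries 15 of the 19 were also higher in marrow and 0 lower, against 17.6% higher over all genes tested there. Among genes of mural cells, 6 of 8 pericyte genes tested were higher and 1 lower, against 21% higher over all genes. Mcam, an adhesion molecule of pericytes, was at 143, 94.4 and 46 CPM in the marrow libraries and 1.14, 1.67 and 1.57 CPM in the bone-associated libraries (6.02 ± 0.51, edgeR adjusted p = 0.00103).

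Mitotic genes were higher in marrow and by a narrow range. Of 22 tested 21 were called higher and 0 lower, against 21% higher over all genes tested, and the median was 0.94. The exception was Nusap1, a spindle protein (0.41 ± 0.15, edgeR adjusted p = 0.0704). Cdc20, which activates the anaphase-promoting complex, was at 35.5, 40.7 and 37 CPM in the marrow libraries and 13.5, 11.2 and 11.8 CPM in the bone-associated libraries (1.64 ± 0.11, edgeR adjusted p = 0.000568), and the mitotic kinase Plk1 was at 35.8, 33.6 and 28.8 CPM in the marrow libraries and 13.3, 11.5 and 12 CPM in the bone-associated libraries (1.42 ± 0.11, edgeR adjusted p = 0.000822). All 22 were higher in marrow between the purified groups, against 17.6% of all genes tested there, and their median was 3.48. For DNA replication 5 of 22 genes were higher and 1 lower, a share close to the 21% higher over all genes tested. Of 14 targets of p53 and cell cycle inhibitors 9 were higher and 1 lower (median 0.99), beside the same 21% higher over all genes. Ccng1, a p53 target, was at 791, 837 and 771 CPM in the marrow libraries and 196, 230.3 and 192 CPM in the bone-associated libraries (1.95 ± 0.11, edgeR adjusted p = 0.000535). Trp53inp1, another p53 target, rose by 1.69 and Bbc3, the death-promoting protein PUMA, by 1.87. Cdkn2c, an inhibitor of CDK4 and CDK6, was lower, at 17.8, 17.6 and 19.5 CPM in the marrow libraries and 42.8, 41.1 and 46.1 CPM in the bone-associated libraries (-1.24 ± 0.09, edgeR adjusted p = 0.000632). Between the purified groups 4 of the 14 were higher in marrow and 1 lower, beside 17.6% and 19.9% over all genes tested there.

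Immediate-early genes, which cells switch on within minutes of a stimulus, were lower in marrow. Of 22 tested 20 were lower and 1 higher, with a median of -1.51, against 21.4% lower over all genes tested. Fos, a partner in the AP-1 factor, was at 78.1, 115 and 134 CPM in the marrow libraries and 2289, 1639 and 1381 CPM in the bone-associated libraries (-4.02 ± 0.30, edgeR adjusted p = 0.00075). Its relative Fosb was at 5.54, 7.15 and 8.70 CPM in the marrow libraries and 1212, 736 and 664 CPM in the bone-associated libraries, 122-fold more in the bone-associated cells (-6.93 ± 0.36, edgeR adjusted p = 0.000535). Dusp1, a phosphatase that turns off MAP kinases, was at 122, 108 and 78.4 CPM in the marrow libraries and 1339, 1174 and 956 CPM in the bone-associated libraries (-3.50 ± 0.23, edgeR adjusted p = 0.000568). Fosl1 was the member that rose (0.84 ± 0.23, edgeR adjusted p = 0.0274), a call lost in 4 of the 6 fits without 1 library: without BM_NonSorted 2 and without each bone-associated library. It was also lost with all 12 libraries in the fit (edgeR adjusted p = 0.288). Myc was not called (-0.25 ± 0.10, edgeR adjusted p = 0.0769). Of the 22 genes 19 were genes of both stromas and 0 were of the removed-cell class. Between the purified groups 14 were lower in marrow and 0 higher, against 19.9% lower over all genes tested there. The AP-1 site TGACTCA was in 0 of 17 promoters of the list, against 4.73% of tested genes.

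**Figure D5:**
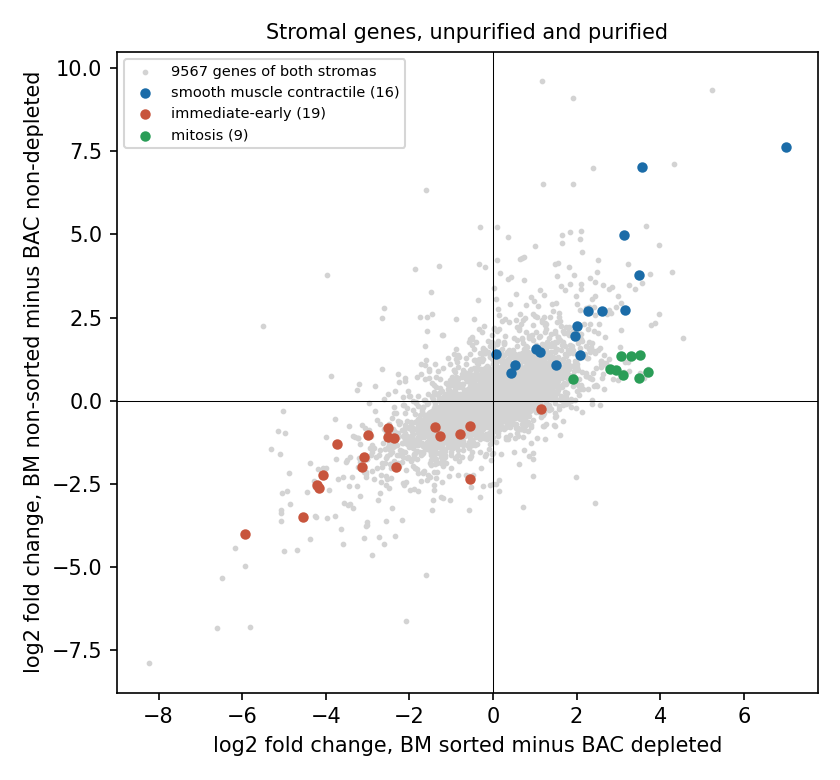
Log2 fold change of the 9567 genes of both stromas between unpurified marrow and bone-associated libraries (y axis) against that between sorted marrow and depleted bone-associated libraries (x axis). Smooth muscle genes (blue) lie high on both axes and immediate-early genes (red) low on both, while mitosis genes (green) differ more between the purified groups.

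The differences in genes of both stromas recurred in part between the purified groups, which share no library with the mixtures. Of 2226 such genes higher in unpurified marrow 1053 were also higher in sorted marrow and 11 were lower. Of 1821 lower in unpurified marrow 1041 were also lower in sorted marrow and 31 were higher. Without the purified library BAC_Depleted 1, which stood apart by Xist, 1047 were also higher and 989 also lower. The purified comparison called 17.6% of its genes higher and 19.9% lower. Across the 9567 genes Pearson's r between both log2 fold changes was 0.66; genes are not independent replicates, and no test is given.

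Among named genes of both stromas, Adgrf5, an adhesion receptor, was at 229.9, 319 and 245 CPM in the marrow libraries and 0.168, 0.797 and 0.267 CPM in the bone-associated libraries (9.33 ± 0.49, edgeR adjusted p = 0.000535). Ptprz1, a receptor phosphatase, had 3035 counts over the marrow libraries and 3 over the bone-associated ones, a ratio of 878 (95% counting interval 300 to 4260). It did not differ between the purified groups by this test (1.18, edgeR adjusted p = 0.587). Sp7, the osteoblast factor osterix, was at 45.6, 92.6 and 94.3 CPM in the marrow libraries and 0.134, 0.507 and 1.22 CPM in the bone-associated libraries (6.99 ± 0.68, edgeR adjusted p = 0.00137), and alkaline phosphatase (Alpl), an early osteoblast enzyme, was at 119.9, 364 and 299 CPM in the marrow libraries and 4.23, 6.34 and 19.9 CPM in the bone-associated libraries (4.68 ± 0.77, edgeR adjusted p = 0.00587). In all, 5 of 13 osteoblast genes tested were higher and 2 lower, beside 21% and 21.4% over all genes tested. Spp1, which encodes osteopontin and is made by macrophages as well as bone cells, was among the lower ones at 1123, 1273 and 447 CPM in the marrow libraries and 4112, 5630.1 and 6897 CPM in the bone-associated libraries (-2.55 ± 0.44, edgeR adjusted p = 0.00635); its call was lost with all 12 libraries in the fit. Cxcl12, the chemokine that retains blood stem cells, was at 1560.2, 3558 and 4284 CPM in the marrow libraries and 941, 1139 and 869 CPM in the bone-associated libraries (1.67 ± 0.38, edgeR adjusted p = 0.0156). Its call was lost without BM_NonSorted 2, without BAC_NonDepleted 1 and with all 12 libraries in the fit. The niche factor list to which Cxcl12 belongs did not move with it, since 2 of its 18 tested genes were higher and 6 lower (median -0.20). The shares over all genes tested were again 21% higher and 21.4% lower. Outside the class of both stromas, Cd200, a surface ligand that restrains macrophages, was at 21, 19.8 and 82.4 CPM in the marrow libraries and 0.134, 0.507 and 0.153 CPM in the bone-associated libraries (7.26 ± 0.93, edgeR adjusted p = 0.00274). Cd200 was the 1 higher gene among 18 tested genes of macrophage support and restraint, of which 9 were lower. Lower genes made up 21.4% of all genes tested.

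Several matrix genes of cartilage, tendon and connective tissue were lower in marrow. Comp, a cartilage and tendon matrix protein, was at 8.25, 8.77 and 7.71 CPM in the marrow libraries and 1109.7, 2826 and 1955 CPM in the bone-associated libraries. Every bone-associated library was over 100 times any marrow library (-7.90 ± 0.44, edgeR adjusted p = 0.000535), and the purified groups differed the same way (-8.23, edgeR adjusted p = 0.0019). Clu, the secreted chaperone clusterin, was at 3.18, 4.40 and 6.24 CPM in the marrow libraries and 661, 691 and 228 CPM in the bone-associated libraries (-6.83 ± 0.59, edgeR adjusted p = 0.00104). Decorin (Dcn), a small proteoglycan that binds collagen, was at 0.623, 0.712 and 0.540 CPM in the marrow libraries and 121, 415 and 1651 CPM in the bone-associated libraries (-10.18 ± 1.31, edgeR adjusted p = 0.00277), with BAC_NonDepleted 3 highest. Lum, the related proteoglycan lumican, was also highest in BAC_NonDepleted 3 (0.0934, 0.0324 and 0.690 CPM in the marrow libraries and 45.9, 171 and 1249.9 CPM in the bone-associated libraries). Of 14 cartilage genes 5 were lower and 1 higher, and of 12 tendon and fibroblast genes 5 were lower and 1 higher, beside 21.4% lower over all genes tested. Car9, a carbonic anhydrase induced by hypoxia, was at 5.36, 7.57 and 7.98 CPM in the marrow libraries and 952, 642 and 472 CPM in the bone-associated libraries (-6.63 ± 0.36, edgeR adjusted p = 0.000535). The hypoxia and glycolysis list as a whole split, with 5 of 23 higher and 5 lower, both shares close to those over all genes tested. Versican (Vcan), a large proteoglycan, was in contrast higher in marrow, at 831, 1033 and 981 CPM in the marrow libraries and 106, 48.8 and 110.2 CPM in the bone-associated libraries (3.43 ± 0.34, edgeR adjusted p = 0.00138). Of 21 collagen genes 5 were higher, a share close to the 21% over all genes tested, and 0 were lower. Col7a1, the anchoring fibril collagen, was at 46.7, 42.4 and 55.8 CPM in the marrow libraries and 2.25, 4.56 and 2.10 CPM in the bone-associated libraries (4.02 ± 0.34, edgeR adjusted p = 0.001).

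Genes of 1 stroma alone gave the widest ratios, set by near-absence in one mixture. Mcpt8, a mast cell and basophil protease gene detected in sorted marrow stroma, had 957 counts over the marrow libraries and 0 over the bone-associated ones, at least 277-fold higher when the group at 0 is given 3 counts in all. Abcc9, a potassium channel subunit of pericytes, had 619 counts against 0, at least 179-fold higher. Wnt4, a Wnt ligand, had 748 counts against 1, a ratio of 649 (95% counting interval 116 to 25700). On the bone side, Barx1, a homeobox factor, had 1542 counts in bone-associated libraries and 0 in marrow, at least 592-fold higher. Dermatopontin (Dpt), a matrix protein, had 20482 counts against 1, a ratio of 23600 (95% counting interval 4240 to 932000). Penk, which encodes enkephalin peptides, was at 0.0934, 0.162 and 3.96 CPM in the marrow libraries and 2187, 3751 and 1533 CPM in the bone-associated libraries (-10.77 ± 1.57, edgeR adjusted p = 0.00402). Thbs4, a tendon thrombospondin, was uneven, at 0.0623, 0 and 0 CPM in the marrow libraries and 945, 818 and 7.87 CPM in the bone-associated libraries. It had 2 counts over the marrow libraries and 50967 over the bone-associated ones, a ratio of 29400 (95% counting interval 8130 to 243000). It was called lower (edgeR adjusted p = 0.00777), but not without BM_NonSorted 1 (edgeR adjusted p = 0.056). Of the 7 genes of marrow stroma alone that were lower in the mixture, 6 were called higher in sorted marrow than in depleted bone stroma. The class was chosen by that difference, so this direction was fixed beforehand and is no separate result. One of the 6 was Fcer1g, an adaptor of Fc receptors in myeloid cells and a macrophage core gene. It was at 124, 116 and 117 CPM in the marrow libraries and 306, 329.8 and 246 CPM in the bone-associated libraries (-1.30 ± 0.13, edgeR adjusted p = 0.00119). With all 12 libraries in the fit its edgeR adjusted p was 0.195. Its log2 fold change between the purified groups was 6.34, a difference that the class rule selected.

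Genes of the antigens used to sort or deplete, beside Adgre1 and Ptprc, did not follow one pattern. Itgav, which encodes CD51, was at 591, 449 and 401 CPM in the marrow libraries and 173, 173 and 241 CPM in the bone-associated libraries (1.30 ± 0.20, edgeR adjusted p = 0.00457). Ly6a, which encodes Sca-1, overlapped between the groups at 258, 182 and 125 CPM in the marrow libraries and 215, 216 and 206 CPM in the bone-associated libraries (-0.17 ± 0.25, edgeR adjusted p = 0.609). Ly6c1, a gene of the depletion antigen Ly6C, also overlapped, at 48.1, 43.1 and 39.1 CPM in the marrow libraries and 30.8, 53.5 and 97.4 CPM in the bone-associated libraries (-0.48 ± 0.40, edgeR adjusted p = 0.373).

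Skeletal muscle genes were carried by 1 marrow library. Of 8 tested 4 were called higher in marrow, against 21% of all genes tested. The summed level of the 8 was 90.0, 386 and 41.0 CPM in marrow and 4.89 to 11.8 CPM in bone-associated libraries. Myog, a factor of muscle differentiation, had 4, 447 and 22 counts in the marrow libraries and 0 in the bone-associated ones, so it was left out by the low-count filter. Des, a filament protein of muscle that is also in the smooth muscle list, was at 7.88, 65.7 and 5.94 CPM in the marrow libraries and 0.704, 0.362 and 0.573 CPM in the bone-associated libraries (5.58 ± 1.22, edgeR adjusted p = 0.0145). BM_NonSorted 2 was highest for all of these, and the call for Des was lost without BAC_NonDepleted 2 (edgeR adjusted p = 0.0563) and with no low-count filter (0.0722). Whether muscle cells in that library bear on its other values was not tested.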

How the data were processed

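RNA was sequenced in 12 mouse libraries, 3 in each of 4 groups, and the authors deposited raw read counts per gene. Per the submitters' processing notes, reads were handled with STAR 2.7.9a, Subread 2.0.1 (featureCounts) and MultiQC 1.7 on GRCm39. The sources used here do not give the annotation release or the strand setting, which leaves genes that overlap, lie antisense or have near copies uncertain. The 6 compared libraries were fitted alone with edgeR 4.0.16 in R 4.3.3 (TMM, filterByExpr, robust quasi-likelihood F test, 4 residual degrees of freedom, Benjamini-Hochberg over all genes tested). CPM are on TMM-scaled sizes. The standard error was taken from the F statistic.

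Ratios with 0 to 3 counts in a group use a floor of 3 counts over the group or a 95% exact binomial interval, which cover counting error only. On data simulated for this comparison (14475 genes), 54 of 100 genes changed by 1 on the log2 scale and 95 of 100 changed by 2 were called, with 10 false calls. Far fewer genes were changed there than the 42.4% called in the real data. The recovery and the false calls of the simulation therefore need not hold here. The members and lists were chosen with earlier results of these data known. The comparison of the purified groups was added. Removed-cell scaling was first run over all near-absent entries and was then limited to tested genes, after that first result was seen; both are given, with the core-list alternative.

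Genes were named by rule: the markers and sorting antigens, up to 3 each way per list and up to 8 each way per class by fold change. Genes outside it (Acta2, Cx3cr1, Ifit2, Il6, Myc, Myog, Nusap1, Oas2 and the genes at 0 counts) were chosen after their values were seen. Promoter sequences are RefSeq's, GRCm38.p6; 10964 of 14686 tested genes matched. ISRE, AP-1, NF-kB and CArG motifs were searched, and all 4 results are given. Alternatives were other scalings and filters, DESeq2 1.42.0, all 12 libraries, a replicate block, other class limits and leaving out each library.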

Additional observations from a re-analysis of the deposited data

How the results depend on the processing

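Of 220 named genes, 210 were called, and 145 kept direction and call under every alternative that gave an adjusted p. The fit of all 12 libraries ended 33 of these calls, the lack of a low-count filter 31, and leaving out 1 library 14 to 36, most without BM_NonSorted 2. Only 5 genes reversed in any setting run, none of them called: without 1 library Cx3cr1 ran from -0.996 to 0.21 (positive without BAC_NonDepleted 3), Il6 from -1.39 to 0.14 (positive without BAC_NonDepleted 2), Ebf1 from -0.12 to 0.49 (negative without BAC_NonDepleted 2), Ly6a from -0.49 to 0.055 (positive without BM_NonSorted 3) and Ly6c1 from -0.80 to 0.043 (positive without BAC_NonDepleted 3). With 1 library left out, genes higher in marrow numbered 1955 to 2972 and lower 2002 to 3103; both stromas 1365 to 2140 higher and 1050 to 1751 lower; removed cells 0 to 3 higher and 203 to 239 lower; marrow stroma alone 25 to 30 higher; bone stroma alone 0 to 1 higher; scaled removed-cell genes 3 to 12 higher and 106 to 183 lower; and lysosomal genes 13 to 21 lower. Both counts of all genes, both counts for both stromas and the lysosomal count were lowest without BM_NonSorted 2. Of 261 scaled removed-cell genes, 42 were higher and 51 lower with the core lists, 3 higher and 226 lower with all near-absent entries, 1 higher with no low-count filter, 38 higher and 56 lower with the stricter filter, and 18 higher and 68 lower with a near-absent limit of 0.5 CPM; the number called here thus rests on the scale. The removed-cell share moved to 0.943% in marrow at a limit of 0.5 CPM, and to 1.47% in marrow and 2.98% in bone-associated libraries at 2 CPM. At limits of 0.5 and 2 CPM the removed-cell class held 1 and 4 higher genes, marrow stroma alone 11 and 91 higher and bone stroma alone 36 and 93 lower. With a presence limit of 10 CPM, 3 genes of marrow stroma alone were lower. With the replicate block 2221 genes were higher and 2371 lower; same-numbered libraries did not deviate together (correlations -0.0505, -0.0583 and -0.0514), so the numbers were not taken to pair them. Macrophage scaling with all 12 libraries was not run, because the purified libraries hold almost none of the scaling genes. With 3 libraries a group, a gene not called may still differ. In the simulation 54 of 100 2-fold changes were recovered, but far fewer genes were changed there, so that share does not measure recovery here.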
